A study of Homo sapiens with 10 samples.

Results

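The 10 genes described here encode proteins that carry fatty acids across the plasma membrane or join them to coenzyme A. They are CD36, the 5 fatty acid transport protein genes SLC27A1, SLC27A2, SLC27A3, SLC27A4 and SLC27A5, and the 4 long-chain acyl-CoA synthetase genes ACSL1, ACSL3, ACSL4 and ACSL5. They were taken by symbol from the gene tables, and all 10 were found among the 60558 genes listed. The samples were 10 mRNA sequencing libraries of PC3, a human prostate cancer line that was established from a metastasis in bone. In the cocultivated group (5 libraries) the PC3 cells had spent 3 days together with human bone marrow adipocytes. The non-cocultivated group (5 libraries) was PC3 cells kept without them. Per the labels, the genotype of both groups was wild type, no drug or transgene was applied to either, and each batch number from 1 to 5 was given to 1 library of each group. Libraries are named below by group and batch number. PC3 is 1 cell line, and the labels do not state how the cancer cells were separated from the adipocytes, how many adipocyte donors there were, or whether the libraries of a group came from separate cultures. The p-values below therefore measure only the spread between these libraries, which may be technical.

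Long-chain fatty acids reach the cytosol partly by diffusion through the membrane and partly with the help of proteins. CD36, also called fatty acid translocase, is a membrane glycoprotein that binds long-chain fatty acids and oxidised lipoproteins. The transport proteins of the SLC27A family are membrane proteins with acyl-CoA synthetase activity of their own, and the ACSL enzymes convert free fatty acids to acyl-CoA, the form that is kept in the cell and passed to oxidation, triglyceride storage or phospholipids. Marrow adipocytes are lipid-storing neighbours of prostate cancer cells that grow in bone.

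Library depth ran from 39074949 to 51515712 expected counts, so a count of 0 allows up to 0.0582 to 0.0768 CPM (counts scaled to library size), depending on the library. These floors stand for 3 counts and for counting error alone, since PCR copies of 1 molecule could not be told from separate molecules. Both batch 1 libraries stood apart from the other 8 on the second principal component of log2 CPM. The labelled cell type was checked against marker lists. The epithelial keratins KRT19, KRT18 and KRT8 and the prostate homeobox gene HOXB13 were present in every library. The prostate genes KLK3, KLK2 and TMPRSS2 had at most 3 counts in any library.

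Compared per transcript length, in TPM, the 10 genes covered a wide range of levels in PC3 cells. In the non-cocultivated libraries, ACSL3 had the highest level (109 ± 13.5 TPM, SD, n = 5). SLC27A4 (52.3 ± 1.81 TPM) and ACSL4 (49.7 ± 4.28 TPM) followed, with ranges that overlapped each other, and then ACSL1 (34.3 ± 6.86 TPM) and SLC27A5 (24.5 ± 1.65 TPM). SLC27A1 (4.77 ± 0.735 TPM), SLC27A2 (2.49 ± 0.334 TPM) and SLC27A3 (1.42 ± 0.512 TPM) were lower, and the last 2 of these overlapped. ACSL5 (0.162 TPM) and CD36 (0.05 TPM) were the least abundant and overlapped each other as well. In the cocultivated libraries the order was the same except that the mean of ACSL4 (62.1 ± 5.99 TPM, n = 5) stood above that of SLC27A4 (57.0 ± 2.19 TPM), again with overlapping ranges. ACSL3 was at 125 ± 7.44 TPM in that group and ACSL1 at 41.1 ± 5.09 TPM, while ACSL5 (0.608 TPM) and CD36 (0.34 TPM) stayed at the bottom.

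The promoters of the 10 genes held between 1 and 51 CpG pairs. Those shown are of ACSL3 and ACSL4, the most abundant synthetase genes after coculture, and of CD36 and ACSL5, the least abundant members. They were picked for their levels and stand for no rule over the 10 genes. All 10 genes matched the RefSeq promoter table of build GRCh38.p14, which gives 20 promoters for them, each of 300 bases from 250 before to 50 after a transcript start. For CD36 and ACSL5 the first of several annotated starts is shown. The sequences read 5′ to 3′ on the strand of the gene, and capitals mark each CpG pair.
ACSL3 (chr2:222860786-222861085, plus strand): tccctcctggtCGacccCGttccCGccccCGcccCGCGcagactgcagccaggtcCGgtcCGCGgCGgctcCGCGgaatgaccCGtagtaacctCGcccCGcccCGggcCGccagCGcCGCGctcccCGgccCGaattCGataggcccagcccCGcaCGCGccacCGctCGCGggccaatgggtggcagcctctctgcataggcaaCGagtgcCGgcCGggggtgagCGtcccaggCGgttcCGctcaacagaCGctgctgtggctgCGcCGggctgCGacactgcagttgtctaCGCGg
ACSL4 (chrX:109733208-109733507, minus strand): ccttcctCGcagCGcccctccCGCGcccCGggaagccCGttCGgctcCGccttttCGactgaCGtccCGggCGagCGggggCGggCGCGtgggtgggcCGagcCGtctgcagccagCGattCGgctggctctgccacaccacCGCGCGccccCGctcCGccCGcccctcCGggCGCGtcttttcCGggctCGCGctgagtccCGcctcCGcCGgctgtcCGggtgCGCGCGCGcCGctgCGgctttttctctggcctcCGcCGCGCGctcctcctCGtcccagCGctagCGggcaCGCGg
CD36 (chr7:80601957-80602256, plus strand): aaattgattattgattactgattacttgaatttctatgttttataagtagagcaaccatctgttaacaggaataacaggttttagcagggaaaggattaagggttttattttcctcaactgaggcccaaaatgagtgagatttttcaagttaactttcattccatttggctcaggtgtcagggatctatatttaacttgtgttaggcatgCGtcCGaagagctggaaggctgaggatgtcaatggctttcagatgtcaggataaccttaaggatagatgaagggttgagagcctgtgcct
ACSL5 (chr10:112375018-112375317, plus strand): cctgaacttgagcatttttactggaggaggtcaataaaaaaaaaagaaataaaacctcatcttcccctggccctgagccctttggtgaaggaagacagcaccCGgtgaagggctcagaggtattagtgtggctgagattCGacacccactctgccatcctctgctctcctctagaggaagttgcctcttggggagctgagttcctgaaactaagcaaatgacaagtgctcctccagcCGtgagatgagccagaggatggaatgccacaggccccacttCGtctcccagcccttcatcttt

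The ACSL4 promoter held 51 CpG pairs and that of ACSL3 41, against a median of 14 over all 35116 promoters of the table. The SLC27A4 promoter held 38 pairs, SLC27A1 31, SLC27A3 26 and SLC27A2 23. Of the 5 ACSL1 promoters, 1 held 47 pairs and the other 4 held 4 to 7. The 6 CD36 promoters held 1 to 3 pairs and those of ACSL5 held 4 and 5, while SLC27A5 held 2 pairs. The TPM level of SLC27A5 was above that of SLC27A1, and a relation of CpG pairs to level was not tested. The letters AGGTCA, the unit that nuclear receptors such as the PPAR and RXR proteins bind in repeats, were searched on both strands and occurred in 1 of the 20 promoters, an ACSL5 promoter, 223 bases before the start, and in 13.8% of all promoters. The sterol response element TCACNCCAC occurred in 1 of the 20, an ACSL1 promoter, 242 bases before the start, and in 1.13% of all promoters. A missing match says only that these letters are not in the window searched.

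After coculture, the synthetase genes rose and the transport protein genes moved apart. With edgeR's quasi-likelihood test and Benjamini-Hochberg adjustment over all 15690 genes tested, 9 of the 10 genes could be tested and 5 were higher in the cocultivated libraries at an adjusted p under 0.05 (SLC27A4, ACSL1, ACSL3, ACSL4 and ACSL5), where 17.9% of all genes tested were higher. Lower calls were made for 2 (SLC27A1 and SLC27A2), where 15.8% of all genes were lower. SLC27A3 and SLC27A5 did not pass the threshold, and CD36 had too few counts to enter the test. In either direction 33.6% of all genes passed, so coculture went with differences across the transcriptome and not in these genes alone. Without the batch 1 libraries, all 7 of these calls held and SLC27A3 was also called lower. Without those of batch 2, 2 genes were higher and 1 lower (SLC27A1, SLC27A4, ACSL1 and ACSL3 lost their calls). Without those of batch 3 or 4, 4 were higher and 1 lower. With batch 3 left out, ACSL1 and ACSL3 lost their calls. The 4 higher genes of that fit included CD36, which passed the filter there through its cocultivated counts. The median log2 fold change of the 9 tested genes was 0.20, and that of all genes was -0.01. In libraries of bulk RNA, fewer cells that express a gene and less RNA of it per cell cannot be told apart.

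**Figure D1:**
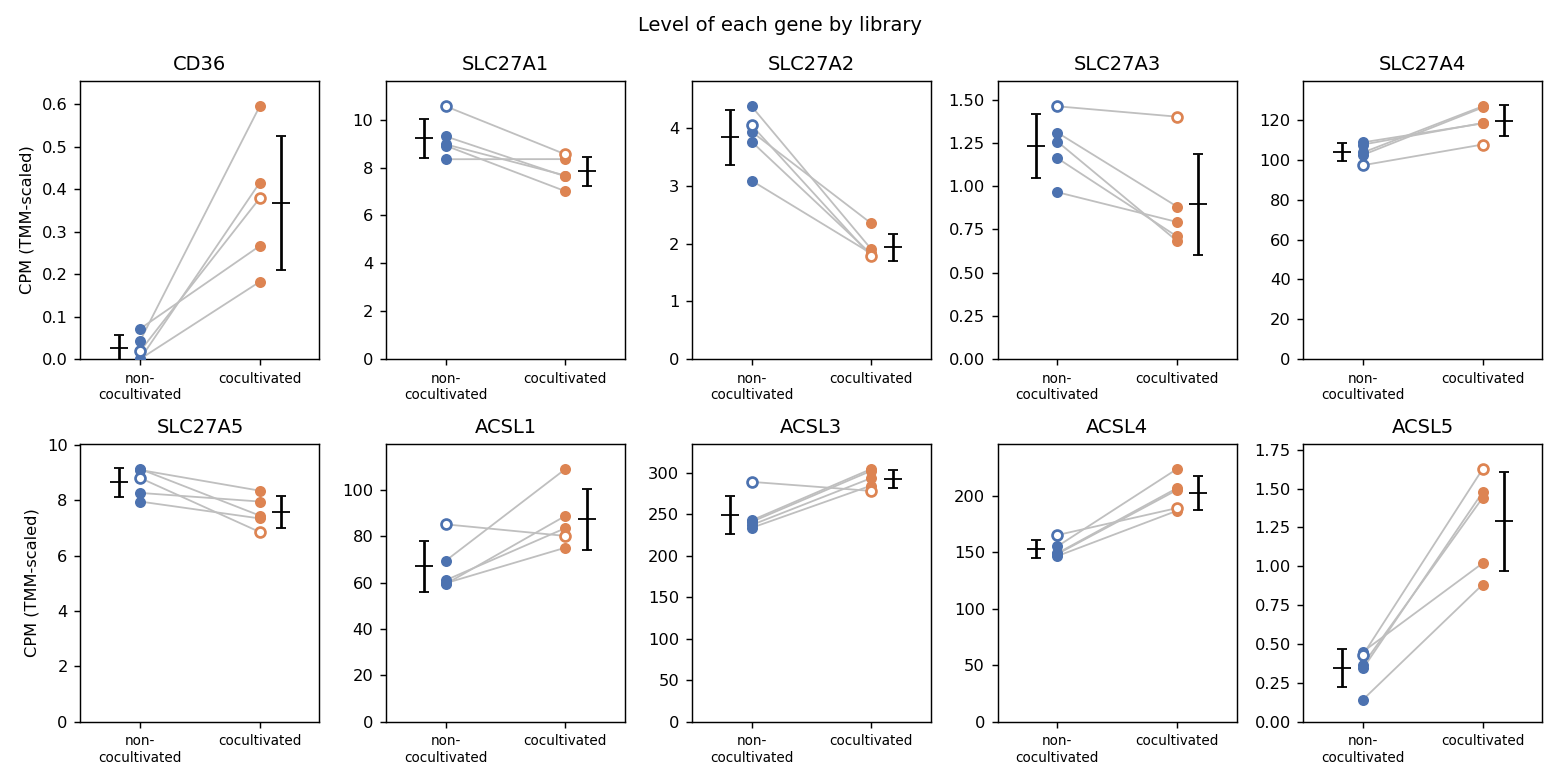
Level of each gene by library, in CPM on TMM-scaled library sizes (vertical axis, from 0), for the 5 non-cocultivated and 5 cocultivated libraries. Grey lines join the libraries of a batch, open circles are batch 1, and the bars beside the points give the mean and SD. The groups stand apart for CD36, SLC27A2, ACSL4 and ACSL5, and non-cocultivated batch 1 is the highest of its group for ACSL1 and ACSL3.

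CD36 (ENSG00000135218) was near the detection limit in PC3 cells alone and was detected in every cocultivated library. The non-cocultivated libraries of batches 1 to 5 held 1, 0, 0, 3 and 2 counts of it, and the cocultivated libraries held 17, 17, 7, 12 and 27. The lowest cocultivated library thus held more counts than the highest non-cocultivated library. On the CPM scale the cocultivated libraries stood at 0.367 ± 0.157 (SD, n = 5), and the non-cocultivated libraries at 0.0266 ± 0.0305. The groups were apart at the smallest p that 5 against 5 libraries allow (exact two-sided permutation test of the CPM values, p = 0.00794). This p is unadjusted, and any gene whose groups do not overlap would reach it. Among all genes tested, which do not include CD36, 13.7% were apart with higher and 11.7% with lower cocultivated CPM. Summed counts over summed, unscaled library totals gave a ratio of 14.1, with a 95% exact binomial interval of 6.19 to 39.5 that covers counting error only. It rests on 80 counts against 6. When the low-count filter was dropped, a choice made after seeing that the filter removed CD36, edgeR gave a log2 fold change of 3.70 ± 0.56 (SE, adjusted p = 2.71e-05), in a fit where 7.45% of all genes were higher. Without any single library or batch this value ran from 3.34 to 4.43. No stretch of 75 bases in its annotated transcripts is shared with another gene of GENCODE v29.

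Of the transport protein genes, 1 rose, 2 fell and 2 did not pass. SLC27A2 (ENSG00000140284), which encodes a very long-chain acyl-CoA synthetase and transporter of liver and kidney, showed the largest fall of the 10 genes. Its non-cocultivated libraries, in the order of batches 1 to 5, had 4.05, 4.38, 3.77, 3.94 and 3.09 CPM, and its cocultivated libraries had 1.78, 1.91, 1.82, 2.35 and 1.83 CPM. Every cocultivated library was below every non-cocultivated one, a separation seen in this direction in 11.7% of all genes tested. SLC27A2 fell by 0.99 on the log2 scale (SE 0.12, edgeR adjusted p = 2.56e-05) and was lower in 5 of 5 batches. Leaving out any library or batch gave -1.07 to -0.93. ATP8B4 shares 17% of its 75-base stretches on the opposite strand, and it had 1 to 6 counts in each library.

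SLC27A4 (ENSG00000167114), a broadly expressed transporter that is the main one of the small intestine, was the only transport protein gene to rise. Its non-cocultivated libraries had 97.4, 103, 109, 108 and 104 CPM, and its cocultivated libraries had 108, 126, 118, 119 and 127 CPM. The CPM ranges overlapped through cocultivated batch 1, while within every batch the cocultivated library was the higher one. In TPM the ranges were narrowly apart, at 50.61 to 54.69 TPM without and 54.73 to 60.52 TPM with adipocytes. The rise was small (log2 fold change 0.20 ± 0.05, 1.15-fold, edgeR adjusted p = 0.00755). Without both libraries of batch 2 the adjusted p was 0.0569.

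SLC27A1 (ENSG00000130304), an insulin-responsive transporter of muscle and fat, was slightly lower after coculture. Its non-cocultivated libraries had 10.6, 8.97, 8.91, 9.30 and 8.35 CPM, and its cocultivated libraries had 8.55, 7.67, 7.01, 7.63 and 8.35 CPM. The groups overlapped through batch 5, in which the libraries were level, and the other 4 batches were lower after coculture. The gene fell by 0.23 on the log2 scale (SE 0.08, edgeR adjusted p = 0.0334). This call was lost without non-cocultivated batch 1 or 4, without cocultivated batch 2, 3 or 4, and without both libraries of batch 2, 3 or 4 (adjusted p up to 0.117). It was also lost on the TPM scale, as were the calls of ACSL1 and ACSL3 described below.

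SLC27A3 (ENSG00000143554), which has acyl-CoA synthetase activity, and SLC27A5 (ENSG00000083807), the bile acid-CoA ligase of the liver, did not pass the threshold. SLC27A3 had 1.46, 1.26, 1.31, 1.16 and 0.966 CPM without adipocytes and 1.40, 0.684, 0.883, 0.71 and 0.794 CPM with them. Cocultivated batch 1 was the only library of its group above the lowest non-cocultivated library. The log2 fold change was -0.46 ± 0.20 (edgeR adjusted p = 0.0996). With the batch as a block it was -0.48 with an adjusted p of 0.0332, and without cocultivated batch 1 it was -0.69 with an adjusted p of 0.00535. INTS3, on the same strand, shares 6% of its 75-base stretches and had a log2 fold change of -0.13 (edgeR adjusted p = 0.0931).

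SLC27A5 had 8.81, 8.27, 7.96, 9.14 and 9.10 CPM without adipocytes and 6.86, 7.96, 7.35, 7.45 and 8.35 CPM with them. The groups overlapped on this scale, and within each batch the cocultivated library was the lower one. Its log2 fold change was -0.19 ± 0.07 with an edgeR adjusted p of 0.052, and with the batch as a block the adjusted p was 0.0328. With the block, 4 of the 10 genes were called lower, where 22.2% of all genes tested were lower. ZNF446, on the opposite strand, shares 11.1% of the 75-base stretches of SLC27A5 and had a log2 fold change of -0.01 (edgeR adjusted p = 0.952).

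All 4 ACSL genes rose. ACSL4 (ENSG00000068366), the isoform that prefers arachidonic and other polyunsaturated fatty acids, had the smallest p of the 5 genes called higher in the filtered fit. Its non-cocultivated libraries, in the order of batches 1 to 5, had 165, 149, 155, 149 and 147 CPM, and its cocultivated libraries had 189, 205, 224, 207 and 187 CPM. The groups did not overlap in CPM, a separation seen in this direction in 13.7% of all genes tested. In TPM they overlapped, at 47.0 to 57.0 TPM without and 53.7 to 70.4 TPM with adipocytes. The smallest difference in CPM within a batch was that of batch 1. The log2 fold change was 0.40 ± 0.05 (1.32-fold, edgeR adjusted p = 8.72e-05), and it ran from 0.36 to 0.45 when single libraries or batches were left out.

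ACSL5 (ENSG00000197142), an isoform of intestine and liver found on mitochondria and endoplasmic reticulum, showed the largest rise of the 9 tested genes from a very low level. Its non-cocultivated libraries had 0.431, 0.368, 0.143, 0.451 and 0.343 CPM, and its cocultivated libraries had 1.63, 1.44, 0.883, 1.02 and 1.48 CPM. The lowest cocultivated library exceeded the highest non-cocultivated library, a separation seen in this direction in 13.7% of all genes tested. The log2 fold change was 1.88 ± 0.26 (edgeR adjusted p = 0.000109), on 34 to 73 counts per cocultivated library against 6 to 23. Its neighbour ZDHHC6, which shares 1.65% of the 75-base stretches on the opposite strand, had a log2 fold change of 0.06 (edgeR adjusted p = 0.488).

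ACSL3 (ENSG00000123983), an isoform of the endoplasmic reticulum and lipid droplets, and ACSL1 (ENSG00000151726), the main isoform of fat, liver and heart, rose less evenly. ACSL3 had 289, 237, 243, 241 and 234 CPM without adipocytes and 278, 294, 305, 302 and 285 CPM with them. Non-cocultivated batch 1 lay within the cocultivated range, and the other 4 non-cocultivated libraries lay below all of it. The log2 fold change was 0.23 ± 0.06 (1.18-fold, edgeR adjusted p = 0.00755), with an increase in 4 of 5 batches and -0.06 in batch 1. Without both libraries of batch 2, 3 or 4 the adjusted p was 0.0504, 0.0578 and 0.0523.

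ACSL1 had 85.1, 59.4, 61.1, 59.8 and 69.5 CPM without adipocytes and 80.1, 88.8, 83.5, 75.1 and 109 CPM with them. Again the groups overlapped only through non-cocultivated batch 1, and batch 1 was the 1 batch of 5 without an increase. The log2 fold change was 0.38 ± 0.11 (1.3-fold, edgeR adjusted p = 0.0202), and 0.48 without non-cocultivated batch 1. The call was lost without non-cocultivated batch 2, 3 or 4 and without both libraries of batch 2, 3 or 5 (adjusted p up to 0.101). No 75-base stretch of ACSL1, or of SLC27A4, is shared with another annotated gene, and for ACSL3, ACSL4 and SLC27A1 the share was below 1% with any gene.

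**Figure D2:**
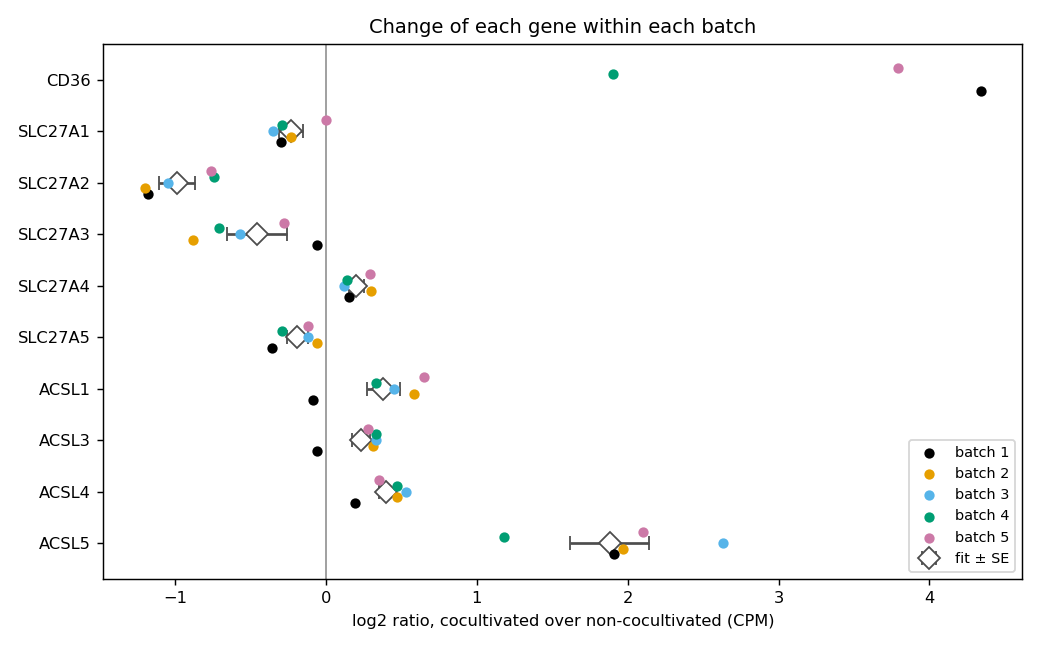
Log2 ratio of CPM, cocultivated over non-cocultivated, within each batch (coloured points) and the fitted log2 fold change with its SE (open diamonds). ACSL4, ACSL5 and SLC27A4 lie above 0 in 5 of 5 batches, ACSL1 and ACSL3 in 4 of 5, and SLC27A2 lies below 0 in 5 of 5. CD36 has points for 3 batches and no diamond, because the non-cocultivated libraries of batches 2 and 3 held 0 counts and the gene was not tested.

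Within the ACSL family the proportions shifted little, since the abundant members rose together. ACSL3 made up 55% to 57.7% of the summed ACSL TPM in the non-cocultivated libraries (median 56.6%) and 52.3% to 56.6% in the cocultivated libraries (median 54.3%). ACSL4 made up a median of 26.1% and then 27.5%, ACSL1 16.8% and then 17%, and the ranges of both overlapped between the groups. ACSL5 stayed below 1% of the sum, at a median of 0.0882% and then 0.257%. The summed ACSL level was 177 to 236 TPM (median 183) without adipocytes and 218 to 242 TPM (median 226) with them, and the groups overlapped through non-cocultivated batch 1.

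In the SLC27A family the share of SLC27A4 was larger after coculture. This gene provided 59.2% to 64.0% of the summed SLC27A TPM in the non-cocultivated libraries (median 60.9%) and 68.8% to 69.4% in the cocultivated libraries (median 69.2%), with no overlap. SLC27A5 went from a median of 29% to 23.6%, and SLC27A2 from 2.87% to 1.40%, also without overlap. The summed level overlapped between the groups, at 84.2 to 87.9 TPM and 79.1 to 87.2 TPM. These shares are descriptions with no test, and a larger share of 1 gene lowers those of the others by construction.

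**Figure D3:**
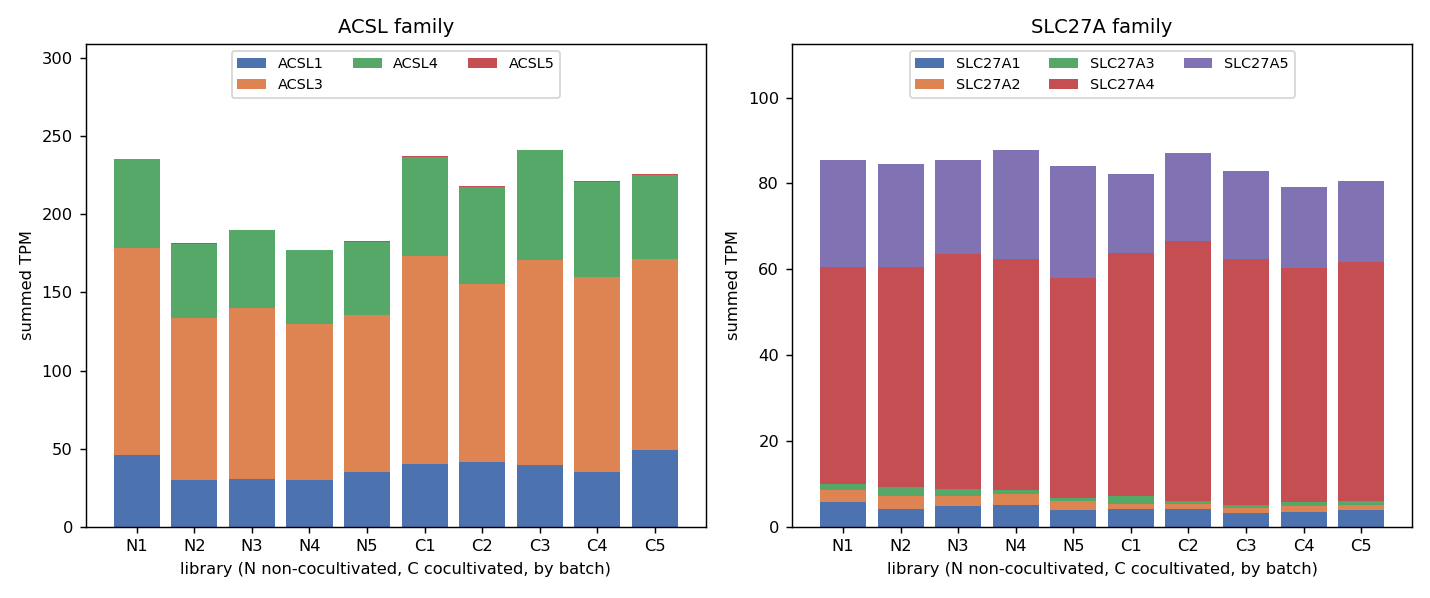
Summed TPM of the 4 ACSL genes (left) and the 5 SLC27A genes (right) in each library, stacked by gene. N marks non-cocultivated and C cocultivated libraries, with the batch number. ACSL3 fills over 50% of every ACSL bar, the ACSL bar of non-cocultivated batch 1 is as tall as those of the cocultivated libraries, and SLC27A4 fills over 59% of every SLC27A bar.

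The TPM values also depend on which transcripts RSEM assigned reads to. The mean transcript length of SLC27A5 was 670 to 707 bases in the non-cocultivated and 682 to 732 bases in the cocultivated libraries. Its longest annotated protein-coding transcript has 2361 bases, whereas its shorter retained-intron transcripts have 564 and 575 bases and its shortest protein-coding transcript has 643 bases. The TPM level of SLC27A5, and its place above SLC27A1, therefore rests on short transcripts. For all 10 genes the length ranges of the groups overlapped, while 2.08% of the 14337 tested genes with at least 10 counts in every library had lengths that did not overlap. CD36 and ACSL5 had libraries with fewer counts and are not among those genes. The non-cocultivated lengths of CD36 rest on 0 to 3 counts, so its overlap carries no information. On the TPM scale the SLC27A5 groups were apart, at 24.5 ± 1.65 TPM and 19.4 ± 1.05 TPM (n = 5 each), whereas they overlapped in CPM. The share of all genes whose groups were apart in TPM was not computed.

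Related genes are given next, and their counts can be read against the 17.9% of all genes that were higher and the 15.8% that were lower. Among the 17 other acyl-CoA synthetases, 6 could be tested, none was higher and 4 were lower, with a median log2 fold change of -0.21. ACSS1, the mitochondrial acetyl-CoA synthetase, fell by 0.80 on the log2 scale (edgeR adjusted p = 2.53e-05), from 13.8 ± 0.583 to 7.90 ± 1.18 CPM (SD, n = 5). AACS, the acetoacetyl-CoA synthetase, fell by 0.19 (adjusted p = 0.00385), and the medium-chain synthetase genes ACSF2 and ACSM3 fell by 0.23 (adjusted p = 0.0107) and 0.30 (adjusted p = 0.0232). The ACSM3 call was lost without non-cocultivated batch 1, without cocultivated batch 3 or 5, and without both libraries of batch 1, 3 or 5, with no filter (adjusted p = 0.0526), and on the TPM scale, where it was -0.03 and -0.04 (limma adjusted p = 0.904 and 0.884). ACSF2 also lost its call on the TPM scale (limma adjusted p = 0.0919 and 0.087). SLC27A6 and ACSL6, the remaining genes of the 2 families, stood at 0.068 and 0.044 TPM without adipocytes and at 0.082 and 0.05 TPM with them, and were not tested.

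Thioesterases, which split acyl-CoA back into fatty acid and coenzyme A, gave 3 higher and 0 lower genes among 10 tested of 13 (median log2 fold change 0.13). ACOT13 stood at 36.9 ± 1.43 CPM without and 51.7 ± 5.26 CPM with adipocytes (log2 fold change 0.49, edgeR adjusted p = 5.96e-05), and ACOT9, a mitochondrial member, rose by 0.33 (adjusted p = 0.00011). The cytosolic ACOT7 rose by 0.18 (adjusted p = 0.0287), a call that was lost when any of 5 single libraries was left out, namely non-cocultivated batch 1 or 2 and cocultivated batch 2, 3 or 4, or both libraries of batch 2, 3 or 4. The ACOT7 call was also lost with library totals (0.12, adjusted p = 0.0518), with no filter (adjusted p = 0.0528) and with TPM (0.09, limma adjusted p = 0.0991 and 0.103). Of the 7 acyl-CoA binding proteins, all tested, the Golgi protein gene ACBD3 rose by 0.19 (adjusted p = 0.000936) and ACBD7 changed by -0.40 (adjusted p = 0.00262). On the TPM scale ACBD3 had a change of 0.11 and lost its call (limma adjusted p = 0.193). ACBD6 was next at 0.14 (adjusted p = 0.0558).

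Other lipid receptors and transporters of the membrane included the gene with the largest rise in the related groups. VLDLR, the receptor for very low density lipoprotein, stood at 6.12 ± 1.05 CPM without and 21.9 ± 2.83 CPM with adipocytes (log2 fold change 1.84, edgeR adjusted p = 1.73e-07). LRP1, another receptor of the same family, rose by 0.80 (adjusted p = 0.00638), the lysophosphatidylcholine transporter gene MFSD2A by 0.42 (adjusted p = 0.00319), and SCARB2, a lysosomal relative of CD36, by 0.19 (adjusted p = 0.00109). The SCARB2 call was lost with TPM (0.11 and 0.12, limma adjusted p = 0.122 and 0.121), which left 3 higher genes. SCARB1, a further CD36 relative and the receptor for high density lipoprotein, fell by 0.19 (adjusted p = 0.00894). The list thus held 4 higher and 1 lower gene of 7 tested, out of 13, with a median of 0.19.

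Of the caveolar coat, which forms the membrane domains where CD36 resides in adipocytes, 5 of 7 genes were tested. The caveolins CAV1 and CAV2 rose by 0.62 and 0.68 on the log2 scale (edgeR adjusted p = 9.76e-05 and 3.96e-07), CAV1 from 215 ± 22.7 to 330 ± 33.8 CPM. CAVIN2 changed by -1.13 (adjusted p = 2.4e-05), and CAVIN1, needed to shape caveolae, had 0 CPM in every non-cocultivated library and at most 0.0444 CPM in a cocultivated one. None of the 3 genes of the CD36 palmitoylation cycle passed the test in edgeR, and 0 had an unadjusted p under 0.05. The palmitoyltransferase genes ZDHHC5 and ZDHHC4 had log2 fold changes of 0.07 (adjusted p = 0.185) and 0.05 (adjusted p = 0.711), and the depalmitoylating LYPLA1 had -0.03 (adjusted p = 0.672). DESeq2 and limma-voom also called 0 of the 3.

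A list around the peroxidation of polyunsaturated phospholipids, which ACSL4 helps to build, holds genes that promote and genes that limit it, and gave 5 higher and 1 lower of 10 tested out of 14 (median log2 fold change 0.24). MBOAT2, a phospholipid acyltransferase, stood at 134 ± 6.39 CPM without and 289 ± 21.7 CPM with adipocytes (log2 fold change 1.11, edgeR adjusted p = 2.9e-08). POR, the reductase that supplies electrons to cytochromes P450 and promotes lipid peroxidation, rose by 0.97 (adjusted p = 2.94e-06). AIFM2, which encodes a coenzyme Q reductase, rose by 0.66 (adjusted p = 1.73e-05), the cystine transporter gene SLC7A11 by 0.71 (adjusted p = 0.000212) and the glutathione peroxidase gene GPX4 by 0.36 (adjusted p = 0.0055). SCD, which makes monounsaturated fatty acids, fell by 0.74 (adjusted p = 0.00169), from 541 ± 148 to 324 ± 41.6 CPM.

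Transcription factors known to act on fatty acid uptake genes gave 3 higher and 2 lower of 12 tested, out of 15 (median 0.02), shares near those of all genes. PPARD, a fatty acid-activated nuclear receptor, stood at 44.0 ± 0.368 CPM and then 75.4 ± 4.47 CPM (log2 fold change 0.78, edgeR adjusted p = 5.11e-08), and CEBPB, a factor of early adipocyte differentiation, rose by 1.15 (adjusted p = 7.14e-07). PPARG, the adipocyte nuclear receptor, fell by 0.49 (adjusted p = 6.55e-07), from 125 ± 2.79 to 88.7 ± 3.38 CPM. SREBF1, the regulator of fatty acid synthesis, fell by 1.31 (adjusted p = 8.42e-08), from 80.2 ± 10.9 to 32.3 ± 0.622 CPM. The oxysterol receptor gene NR1H2 rose by 0.18 (adjusted p = 0.0272), and this call was lost without any of non-cocultivated batches 1 to 4, without cocultivated batch 2, and without both libraries of batch 2, 3 or 4. It was also lost with library totals (0.12, adjusted p = 0.0606) and with TPM (0.09, limma adjusted p = 0.0762 and 0.0824).

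**Figure D4:**
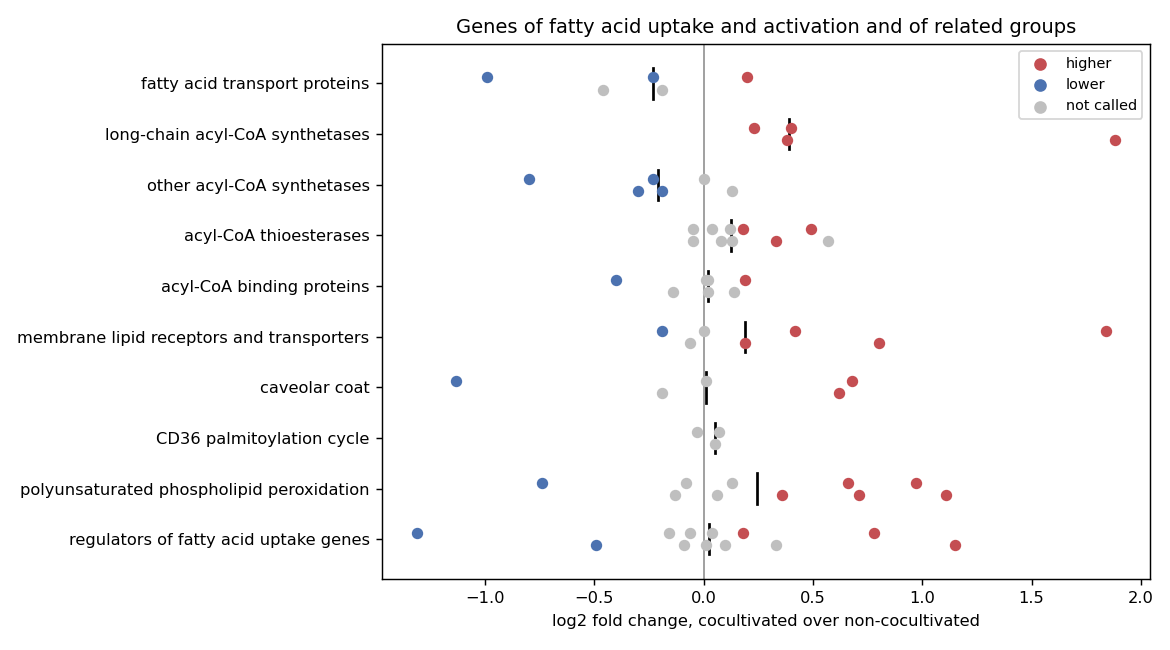
Log2 fold change, cocultivated over non-cocultivated, of each tested gene of the transport protein and ACSL families and of 8 related groups. Red and blue points passed an edgeR adjusted p under 0.05, grey points did not, and the vertical ticks give the median of each group. The 4 ACSL points all lie to the right of 0, and no point of the other acyl-CoA synthetases to the right of 0 is red.

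Several of the 10 genes are also expressed by adipocytes, so the adipocyte markers are given beside them. The summed level of 12 adipocyte markers was 53.6 to 79.5 CPM in the non-cocultivated and 160 to 288 CPM in the cocultivated libraries. ADIPOQ, which encodes adiponectin and is made by adipocytes almost alone, had 0 counts in every cocultivated library and at most 2.01 in a non-cocultivated one. LEP, CIDEA and LPL had at most 3 counts in any library. The higher sum came from FABP4, a fatty acid binding protein, at 27.1 ± 9.70 and then 149 ± 50.5 CPM, and from PLIN4, a lipid droplet protein, at 22.7 ± 1.40 and then 49.0 ± 8.09 CPM, both of which PC3 cells already had without adipocytes. CFD had 4.13 and 4.08 CPM. Of the 6 adipocyte markers tested, 3 were higher and 1 was lower.

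The summed level of 10 stromal fibroblast markers (led by COL1A1, PDGFRA and LUM) was 9.70 to 11.4 CPM without and 3.53 to 5.33 CPM with adipocytes. Endothelial markers (led by PECAM1, KDR and TEK) summed to 31.7 to 43.7 and 18.8 to 26 CPM, with VWF at 3 counts or fewer in every library. These 3 genes went different ways. KDR fell (log2 fold change -1.23, edgeR adjusted p = 0.000167), TEK rose (0.86, adjusted p = 0.000422) and PECAM1 was not called (0.13, adjusted p = 0.265). Haematopoietic markers summed to 32.9 to 39.3 and 42.5 to 49.9 CPM, almost all of it CD68, followed by LYZ and CD14, while CD3E and AIF1 were at 0 in all libraries. The 2 tested genes of this list went opposite ways. CD68 rose (log2 fold change 0.50, edgeR adjusted p = 0.000219) and LYZ fell (-1.95, adjusted p = 5.57e-05). The epithelial markers KRT19, KRT18, KRT8, EPCAM and CDH1 summed to 970 to 1040 and 667 to 772 CPM. HOXB13 stood at 187 ± 13.4 CPM without and 93.3 ± 11.9 CPM with adipocytes (SD, n = 5). The part of these shifts in the results for the 10 genes was not tested.

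The genes whose levels followed ACSL4 most closely over the 10 libraries, by Pearson's r of log2 CPM, were JAK1 (0.981), a cytokine receptor kinase, PHLDB2 (0.980), a cell cortex protein, and EXOC2 (0.979), a subunit of the exocyst. For SLC27A2 they were P3H4 (0.989), a collagen-modifying protein of the endoplasmic reticulum, ICAM1 (0.983), an adhesion molecule, and PBDC1 (0.983). These values largely follow the difference between the groups, and among 12977 genes 379 had an r over 0.9 with ACSL4 and 639 with SLC27A2.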

How the data were processed

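Each deposited table holds the genes of 1 PC3 library. Per the file headers, the authors' columns give expected counts (reads that RSEM assigned to a gene, shared out where they fit several), TPM, FPKM, length and effective length. FPKM was not used. Tools listed in the submitters' processing notes are RSEM 1.3.3, Bowtie2 2.4.4 and bcl2fastq. The strand setting, annotation release and build are not given in the sources used, so genes that overlap on opposite strands may share reads. Per the labels' protocols, a stranded kit was used on 500 ng of RNA (quality number 10), with 150 sequencing cycles.

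Expected counts, 83.8% of which were whole within 0.005, were rounded. Genes passed filterByExpr (minimum count 10, total 15), libraries were scaled by TMM (factors 0.953 to 1.04), and the groups were compared with edgeR 4.0.16 (quasi-likelihood test, limma 3.58.1, R 4.3.3) and Benjamini-Hochberg adjustment at 0.05. The SE is the absolute log2 fold change over the square root of F. The script was tested on simulated counts. CD36, which the filter removed, was tested by an exact permutation test. Floors, marker sums and the count ratio of CD36 use library totals, all other CPM the scaled totals. Alternatives were DESeq2 1.42.0 (size factors, and its test), library totals, limma-voom, no filter, a mean of at least 1 CPM, the batch as a block, limma on log2(TPM + 1) and log2(TPM + 0.1), and leaving out each library or batch. Fold changes on the TPM scale understate changes of low genes.

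The labels state a shared batch number, so libraries of equal number were treated as paired in the block. Their deviations from the group means correlated at 0.329, -0.019, 0.0734, 0.104 and 0.281 in batches 1 to 5. No libraries of a group were duplicates (chi-square per degree of freedom 4.58 to 48.3). Of the Ensembl identifiers, 96.6% occur in GENCODE v29 (GRCh38), used for transcripts and shared 75-base stretches. Promoters are from RefSeq.

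The 10 genes, the related lists and the tests were chosen with earlier results of these data known. Named are all 10 genes, the 3 tested genes of each related list with the smallest p and all its called genes, the 3 most abundant markers of each cell type (some marker results are not reported here), and the 3 genes most correlated with ACSL4 and SLC27A2.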

Additional observations from a re-analysis of the deposited data

Results flagged for a closer look

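In 3 of the 20 sets of 5 libraries examined for the 10 genes, 1 library lay far from the other 4 of its group by Dixon's ratio, and chance gives about 1 set in 20. ACSL3 stood at 289 CPM in non-cocultivated batch 1, against 234 to 243 CPM in the other 4. SLC27A3 stood at 1.40 CPM in cocultivated batch 1 (1.403), against 0.684 to 0.883 CPM. SLC27A2 stood at 2.35 CPM in cocultivated batch 4 (2.351), against 1.78 to 1.91 CPM.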

How the results depend on the processing

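No result for the 10 genes changed direction under any alternative, and SLC27A2, ACSL4 and ACSL5 kept their calls under every alternative that tested them. Scaling moved the median log2 fold change of all genes by less than 0.1 throughout, to -0.06 with library totals and -0.06 and -0.08 with TPM. With TPM at a pseudocount of 1 and of 0.1, SLC27A1 changed by -0.28 and -0.33 (adjusted p = 0.0573 and 0.0569), ACSL1 by 0.27 and 0.27 (0.112 and 0.108) and ACSL3 by 0.20 and 0.20 (0.0595 and 0.0582), none of which passed. SLC27A5 passed with DESeq2's size factors (-0.19, adjusted p = 0.048), library totals (-0.24, 0.00884), DESeq2 (-0.19, 0.0488), a mean of at least 1 CPM (-0.19, 0.0446), the block (-0.19, 0.0328) and TPM (-0.32 and -0.33), and SLC27A3 with the block (-0.48). Of the 10 genes, 3 were then higher with either TPM setting, and 4 were lower with the block. Over all genes, 2801 were higher, and 1740 and 1733 with TPM. The block gave 3478 higher and 3487 lower, and changed no other call among the 10 genes. Other acyl-CoA synthetases had 2 lower genes with either TPM setting. Acyl-CoA binding proteins had 2 higher genes with a mean of at least 1 CPM and with the block, and 0 with TPM. The peroxidation list had 2 lower genes with library totals. The cause of these shifts was not tested.

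When single libraries or batches were left out, the log2 fold change of SLC27A1 ran from -0.28 to -0.18, SLC27A3 from -0.69 to -0.37, SLC27A4 from 0.18 to 0.23, SLC27A5 from -0.22 to -0.15, ACSL1 from 0.30 to 0.51 and ACSL3 from 0.21 to 0.31. From 2 to 6 of the 10 genes were higher, the 2 without both libraries of batch 2. The counts of 6 include CD36, which passed the filter in some of these fits through its high cocultivated counts. Its calls there add no support beyond the CD36 values given above. From 1 to 3 of the 10 genes were lower, the 1 in each case where SLC27A1 lost its call. SLC27A5 passed without cocultivated batch 5 (adjusted p = 0.0262) or non-cocultivated batch 3 (0.0384), and SLC27A3 without both libraries of batch 1 (0.0118). The other acyl-CoA synthetases had 0 to 1 higher genes, the 1 being ACSS2 without non-cocultivated batch 1 or both libraries of batch 1. The acyl-CoA binding proteins had 1 to 2 higher genes, the added one being ACBD6 without cocultivated batch 1 or non-cocultivated batch 4. The regulators had 2 to 5 higher genes, with PPARA and SREBF2 added without non-cocultivated batch 1. Depth limits CD36 and ACSL5 most, with at most 27 and 73 counts in a library, and a p over the threshold does not show that SLC27A3 or SLC27A5 stayed level.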
